A study of Mus musculus with 32 samples.

Results

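The 3ABY721 macrophage line was compared in 2 states, grown continuously in CSF-1 and starved of CSF-1 overnight. Its 4 arrays, 2 from grown cells (labelled CONST) and 2 from starved cells (labelled UR), were taken by their titles from the 32 arrays of the series. The series holds 4 mouse macrophage lines, all on an M-/- background in the labels and each carrying the form of the CSF-1 receptor (CSF-1R) that its name gives. WT and 3ABY721 are described as having the phosphorylated Tyr-721, whereas Y721F and 3AB lack that tyrosine, and the other residues altered in the 3AB receptors are not spelled out in the sources used here. Grown 3ABY721 cells had recombinant human CSF-1 (120 ng/mL) in their medium, α-MEM supplemented with newborn calf serum. The starved 3ABY721 cells had the same medium and serum without CSF-1 overnight. Grown and starved WT, Y721F and 3AB cells, with 2 arrays in each state, were handled in the same way and serve here for the comparison of lines. Each receptor is represented by 1 line, so the receptor and the line cannot be told apart. Total RNA with an integrity number above 9.5 was hybridised to Affymetrix Mouse Gene 1.0 ST arrays, and the design text of the series describes arrays I and II of a state as biological replicates.

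Most tissue macrophages and their precursors need CSF-1 to survive and divide. CSF-1 binds CSF-1R, a receptor tyrosine kinase of the myeloid lineage, whose phosphorylated tyrosines recruit adaptors that feed the RAS-ERK cascade and PI3K. Tyr-721 is known as the docking site for the regulatory subunit of PI3K.

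All values below are log2 signals of 1 probe set per gene, and a difference is the grown mean minus the starved mean, in log2 units, with its standard error (SE) from limma. A gene was called where the p adjusted by Benjamini-Hochberg over 19938 genes was under 0.05 and the fold was above 1.5, and "rose" and "fell" are used of called genes. The median signal over all genes was 6.53 and 6.58 in the grown 3ABY721 arrays, against 6.57 and 6.60 in the starved ones. Arrays I and II correlated at 0.995 in grown cells and at 0.994 in starved cells. The SD of the values between them was 0.149 in grown cells and 0.167 in starved cells. Csf1r, the receptor gene, read 13.08 and 13.16 in grown cells, against 13.03 and 13.07 in starved cells (difference 0.07, adjusted p = 0.888). Whether this signal came from the receptor form that the line carries or from the endogenous gene was not tested. The macrophage genes Cd68, at 12.91 and 13.02 in grown cells and 12.95 and 12.97 in starved cells, and Spi1, at 10.77 and 10.80 in grown cells and 11.30 and 11.11 in starved cells, lay well above the all-gene median in all 4 arrays. Both belong to the 19 macrophage identity genes described below, of which 15 lay below 0 and 4 fell (median difference -0.66). In such bulk samples, fewer cells of a kind and less RNA per cell cannot be told apart.

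Growth in CSF-1 raised 148 genes and lowered 134 genes in 3ABY721 cells relative to starved cells, which is 282 called genes or 1.41% of those tested (0.742% up and 0.672% down). An unadjusted p under 0.05 was reached by 12.2% of all genes, and the cutoff of the series' design text, a fold above 1.5 with an unadjusted p under 0.05, by 4.13%. Among the 15 largest rises were chemokines, D-type cyclins, the glucose transporter gene Slc2a1 and the hypoxia-linked genes Egln3 and Bnip3. The collagen-modifying enzyme gene Plod2, the ornithine decarboxylase gene Odc1 and the MAP kinase phosphatase gene Dusp4 were also among them. Lectin-type receptors, MS4A membrane proteins, Cxcr4, the NADPH oxidase subunit Cybb and selenoprotein P stood at the top of the falls. Of the 282 genes, 150 moved by more than 2-fold (79 up and 71 down), and 21 by more than 4-fold (13 up and 8 down). The median difference was 1.02 among the called rises and -1.04 among the called falls, against 0.00 over all genes, of which 49.8% lay above 0. The grown and starved arrays did not overlap for any of the 282 genes, and they did not overlap for 46.6% of all genes. Olfr1494, Csf2, Clec4b1 and Fam170a, chosen after their values were seen, were the 4 called genes whose lower mean lay under 4.87, the 20th percentile of all genes' signals. The test took its spread together with the arrays of the other lines, and the same fit on the 4 arrays of 3ABY721 alone called 759 genes. Calls were then counted again with 1 array of 3ABY721 left out at a time, the lone array left in a state being assumed to vary like the other groups. Of the 282 calls, 95 remained without grown array I, 50 without grown array II, 64 without starved array I and 106 without starved array II. In all 4 of these omissions 40 genes stayed called, and 147 stayed called in 0 of them.

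**Figure D1:**
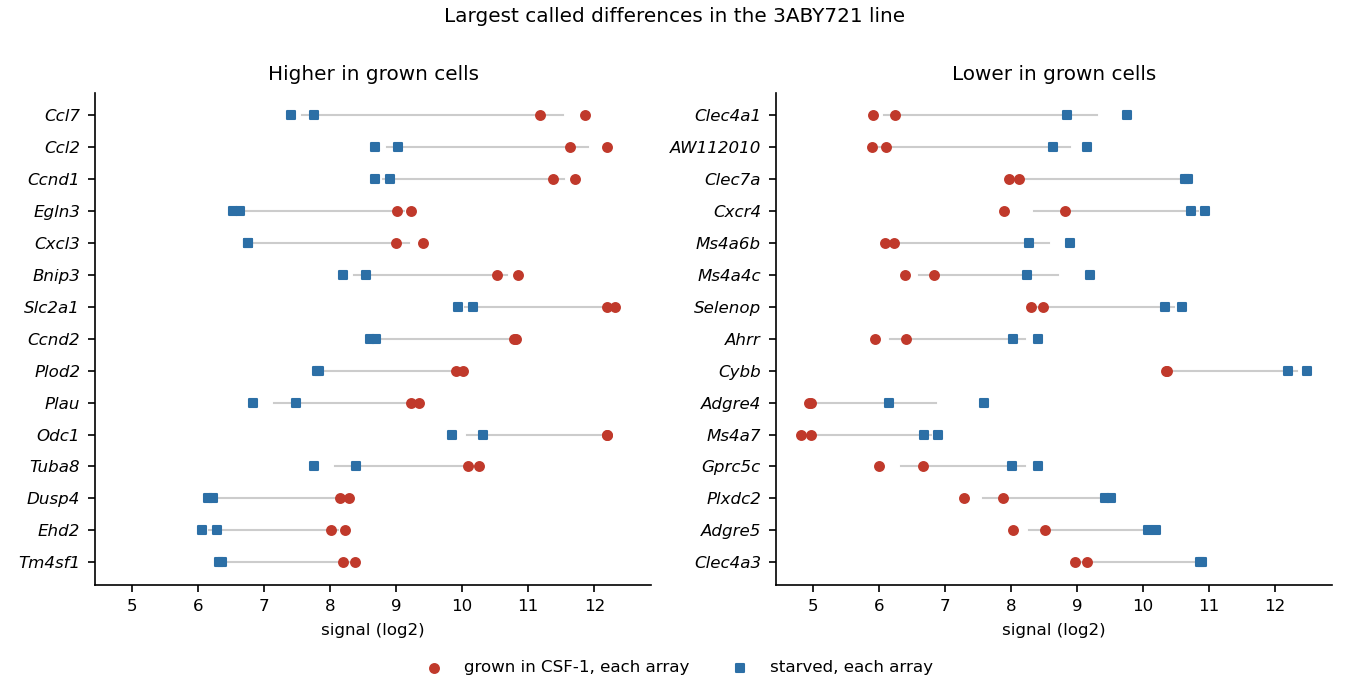
Signals (log2, horizontal axis) of the 15 largest called rises and the 15 largest called falls in the 3ABY721 line, with 1 point per array, circles for grown cells and squares for starved cells, and a grey line between the means. Only called genes whose arrays did not overlap were eligible, so circles and squares stand apart in every row. The gap is widest for Ccl7 (difference 3.94) and Clec4a1 (difference -3.23).

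The monocyte chemokines Ccl7 and Ccl2, ligands of CCR2, rose most. Ccl7 read 11.18 and 11.86 in grown cells, against 7.41 and 7.75 in starved cells. Both grown arrays were far above both starved arrays, a 15.3-fold difference (log2 difference 3.94, SE 0.30, adjusted p = 1.04e-05). Ccl2 read 11.63 and 12.19 in grown cells, against 8.68 and 9.03 in starved cells, again without overlap and 8.31-fold higher (adjusted p = 0.000502). Cxcl3, a neutrophil chemoattractant, read 8.99 and 9.41 in grown cells, against 6.76 and 6.76 in starved cells (difference 2.44, adjusted p = 0.00326). Csf2, which encodes the growth factor GM-CSF, read 5.46 and 5.94 in grown cells, against 4.52 and 4.71 in starved cells, low signals in both states (difference 1.08, adjusted p = 0.00667). These were the 4 genes called, all upward, among 30 inflammatory cytokines and chemokines, whose median difference was 0.14. The rest of the inflammatory set did not pass the test. Tnf differed by 0.14 and Il6 by 0.06. Cxcl2 had 9.11 and 10.30 in grown cells, against 8.57 and 8.19 in starved cells (difference 1.32, adjusted p = 0.437), and the macrophage inflammatory protein gene Ccl4 differed by 1.05 (adjusted p = 0.136). Il1b stood lower in grown cells, at 5.37 and 5.72 against 6.76 and 6.44 in starved cells, without passing the test (adjusted p = 0.147). Ccl7 and Ccl2 stayed called whichever 3ABY721 array was left out, Cxcl3 was lost without grown array II, and Csf2 was lost without grown array II or starved array I.

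Of the D-type cyclins, which bind CDK4 and CDK6 to drive cells through G1, Ccnd1 and Ccnd2 rose. Ccnd1 read 11.38 and 11.71 in grown cells, against 8.91 and 8.68 in starved cells, a 6.73-fold difference (log2 difference 2.75, SE 0.44, adjusted p = 0.00474). Ccnd2 read 10.78 and 10.81 in grown cells, against 8.61 and 8.70 in starved cells (difference 2.14, SE 0.33, adjusted p = 0.00391). Ccnd3, the remaining D cyclin, read 8.51 and 8.65 in grown cells and 8.50 and 8.62 in starved cells, so its arrays overlapped (difference 0.02). Ccnd1 and Ccnd2 were the only genes called among 29 G1 cyclins, kinases and inhibitors. Both were lost without grown array II and without starved array I, and Ccnd1 also without starved array II. Their partner kinase Cdk6 differed by 0.87 (adjusted p = 0.0846) and the growth regulator Myc by 1.01, with grown arrays I and II far apart at 7.47 and 8.48 (adjusted p = 0.375). The CDK inhibitor Cdkn1b differed by -0.66 (adjusted p = 0.446).

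Genes of S phase and mitosis did not pass the test. Among 39 DNA replication genes limma called 0, with 2 at an unadjusted p under 0.05, and the differences ran between -0.33 and 0.24 around a median of -0.09. The replication clamp Pcna read 12.39 and 12.43 in grown cells, against 12.45 and 12.47 in starved cells, and the helicase subunit Mcm2 read 10.79 and 10.86 in grown cells, against 10.90 and 10.82 in starved cells. Among 31 mitosis genes 0 were called, with 2 at an unadjusted p under 0.05, and the differences ran between -0.26 and 0.55 around a median of 0.07, with 21 of the 31 above 0. Mki67, the gene of the Ki-67 proliferation antigen, read 10.67 and 10.67 in grown cells, against 10.71 and 10.73 in starved cells. The mitotic kinase gene Cdk1 read 10.79 and 10.45 in grown cells, against 10.56 and 10.54 in starved cells. Ccnd1 and Ccnd2 were the 2 cell cycle genes called over these lists.

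Of 14 negative regulators and transcriptional outputs of ERK signalling, 4 rose and 0 fell, and the list median was 0.73. Dusp4, a nuclear MAP kinase phosphatase, read 8.15 and 8.29 in grown cells, against 6.15 and 6.22 in starved cells, which is 4.1-fold with tight pairs (log2 difference 2.04, SE 0.24, adjusted p = 0.000634). Etv5, an ETS family transcription factor, rose by 1.75 (adjusted p = 0.00678). Dusp6, the cytoplasmic ERK phosphatase, read 10.36 and 11.09 in grown cells, against 8.76 and 9.55 in starved cells, so that array II lay above array I in both states (difference 1.57, adjusted p = 0.0354). Spred2, a membrane inhibitor of RAS-ERK signalling, rose by 1.33 (adjusted p = 0.00341). Outside the list, Errfi1, an inhibitor of EGF receptor family kinases, read 9.39 and 9.65 in grown cells, against 7.61 and 7.57 in starved cells (difference 1.93, adjusted p = 0.0068), and stayed called in 1 omission. Dusp5 differed by 1.18 (adjusted p = 0.141) and Phlda1 by 1.09 (adjusted p = 0.115), while the Sprouty genes Spry1 and Spry2 differed by 0.01 and 0.35. Of the 4 calls, 2 remained without grown array I, 1 without grown array II, 2 without starved array I and 4 without starved array II, and Dusp4 stayed called throughout. Of 26 immediate early genes, the AP-1 subunit Fosl1 alone rose, with 8.33 and 8.49 in grown cells, against 7.03 and 6.51 in starved cells (difference 1.64, adjusted p = 0.00126). The early genes Egr1 (difference 0.74), Fos (0.00) and Nr4a1 (-0.26) did not pass the test, and the median of the 26 was 0.04.

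Glucose uptake, glycolysis and hypoxia-linked genes formed the list with the highest share called among the 31 gene lists, those chosen after values were seen not counted. In it, 10 of the 19 measured members rose and 0 fell, 17 of the 19 lay above 0, and the median difference was 0.86. Slc2a1, the glucose transporter GLUT1, read 12.19 and 12.32 in grown cells, against 10.16 and 9.93 in starved cells, a 4.63-fold difference without overlap (log2 difference 2.21, SE 0.29, adjusted p = 0.00159). Egln3, a prolyl hydroxylase that marks HIF proteins for destruction, read 9.23 and 9.01 in grown cells, against 6.63 and 6.53 in starved cells (difference 2.54, SE 0.53, adjusted p = 0.0263). Bnip3, a mitochondrial BH3-like protein that promotes mitophagy, read 10.85 and 10.52 in grown cells, against 8.54 and 8.19 in starved cells (difference 2.32, SE 0.47, adjusted p = 0.0229). In 3ABY721 each of the 3 had closely matching arrays within a state and a wide gap between the states. For Egln3 the grown arrays lay further apart in the other lines. They read 8.19 and 9.25 in WT, 10.68 and 12.25 in Y721F and 8.10 and 6.63 in 3AB. Those of Bnip3 also did, with 8.36 and 10.16 in WT, 11.40 and 12.74 in Y721F and 10.07 and 9.33 in 3AB. The SE takes in the spread of those arrays. Slc16a3, the lactate exporter MCT4, rose by 1.59. The liver and platelet forms of phosphofructokinase, which catalyses the committed step of glycolysis, rose by 1.47 (Pfkl) and 1.21 (Pfkp).

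Ldha, Pgam1 and Tpi1, enzymes of glycolysis and lactate formation, rose by smaller amounts, while Pgk1 was not called. Pdk1, Pgam1, Tpi1 and the members given below that were not called, other than Vegfa and Hk2, were chosen after their values were seen. Ldha, the enzyme that makes lactate, read 13.11 and 13.21 in grown cells, against 12.51 and 12.50 in starved cells (difference 0.66, SE 0.13, adjusted p = 0.017). Pgam1 rose by 0.82, Tpi1 by 0.77 and Pdk1, a kinase that restrains the entry of pyruvate into mitochondria, by 1.00. The members that did not pass the test included Hilpda (difference 1.50, adjusted p = 0.0811), Pgk1 (0.65, adjusted p = 0.0913), Vegfa (1.33, adjusted p = 0.421) and Hk2 (0.86). Pfkfb3, at a difference of -0.54, and Hk1, at -0.13, were the members below 0. Outside the list, the glycogen enzymes Pgm1 (1.47, adjusted p = 0.0462) and Gbe1 (1.44, adjusted p = 0.0174) and the monocarboxylate transporter Slc16a1 (1.25) also rose, and all 3 were lost in each omission. Of the 10 list calls, 3 remained without grown array I, 2 without grown array II, 3 without starved array I and 4 without starved array II. Slc2a1 and Pfkl stayed called in every omission, whereas Egln3, Bnip3, Pfkp, Pdk1, Tpi1 and Ldha were lost in each of them.

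**Figure D2:**
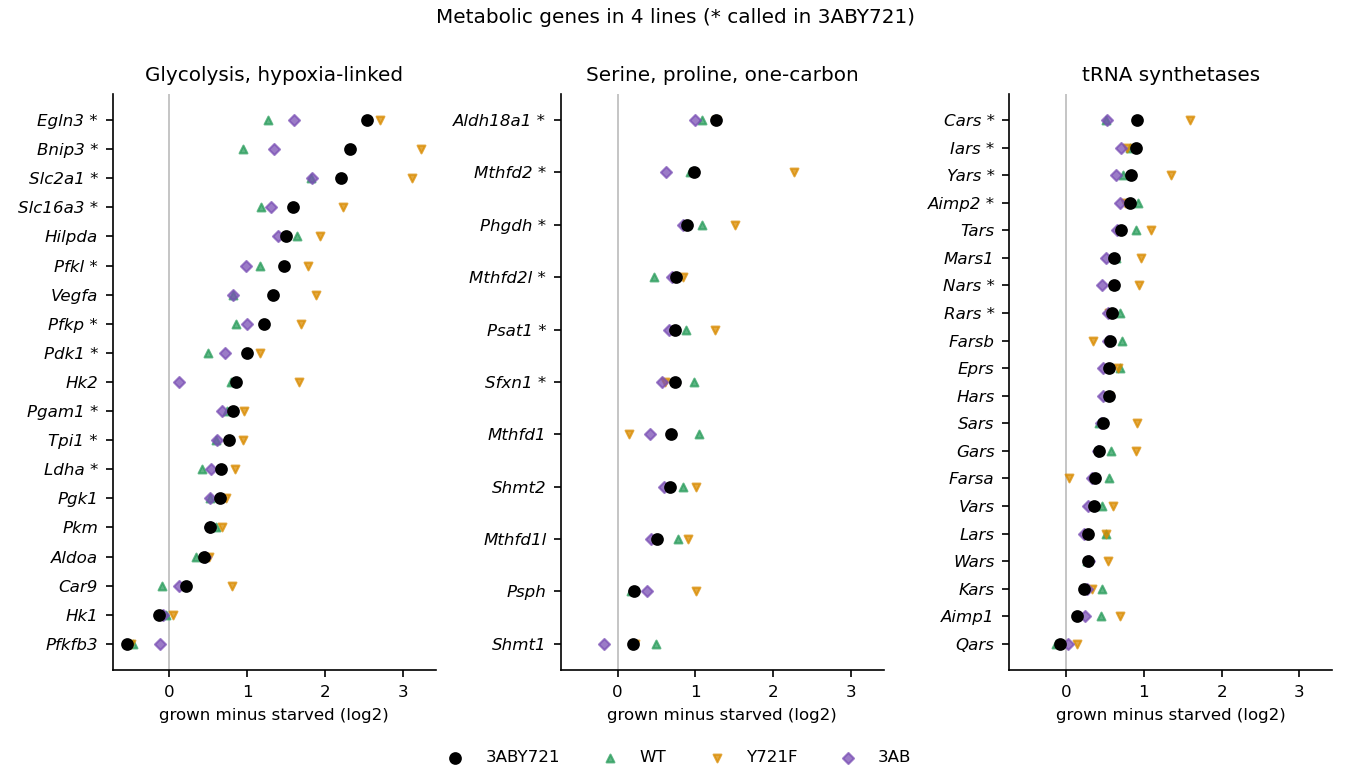
Difference between grown and starved cells (log2, horizontal axis) for each measured gene of 3 metabolic groups, with 1 marker per line and large black circles for 3ABY721; an asterisk marks genes called in 3ABY721. The 3ABY721 circles of the called genes run between 0.59 (Rars) and 2.54 (Egln3), and the Y721F markers of Bnip3 (3.23) and Slc2a1 (3.12) lie to their right.

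The upstream sequences of these genes are shown because several of the genes that rose together are textbook targets of the hypoxia-inducible factors. The response element of these factors often has the core ACGTG, and only that form was searched for. The 250 bases before each start site were taken from RefSeq on GRCm38.p6 and searched on both strands, so that the palindrome CACGTG, also the core E-box, counts on each strand and appears in capitals as a whole. The stretches below are 60 bases each, 5′ to 3′ on the gene's strand, with matches in capitals. Only called genes with a match are shown. P4ha1 and P4ha2 are not members of the glycolysis list but collagen hydroxylase genes, described after the stretches. No stretch is given for Plod2, the other called gene of that family.
Slc2a1, chr4:119108679-119108738, plus strand: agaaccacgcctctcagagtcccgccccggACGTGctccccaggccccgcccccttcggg
Slc16a3, chr11:120949007-120949066, plus strand: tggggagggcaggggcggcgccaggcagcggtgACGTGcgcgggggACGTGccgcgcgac
Ldha, chr7:46845740-46845799, plus strand: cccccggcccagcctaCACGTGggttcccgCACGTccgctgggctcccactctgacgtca
Pgam1, chr19:41911727-41911786, plus strand: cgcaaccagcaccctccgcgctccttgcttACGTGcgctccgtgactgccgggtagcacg
Bnip3, chr7:138909584-138909643, minus strand: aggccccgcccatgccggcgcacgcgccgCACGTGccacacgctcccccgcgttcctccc
Egln3, chr12:54204065-54204124, minus strand: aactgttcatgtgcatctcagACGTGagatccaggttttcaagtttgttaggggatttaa
P4ha1, chr10:59323236-59323295, plus strand: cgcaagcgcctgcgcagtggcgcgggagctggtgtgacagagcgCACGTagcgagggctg
P4ha2, chr11:54100816-54100875, plus strand: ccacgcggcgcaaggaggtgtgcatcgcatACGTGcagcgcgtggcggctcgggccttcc

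The ACGTG form was found upstream of 6 of the 10 called glycolysis and hypoxia-linked genes and of 8 of the 9 members that were not called. It was present at 16.6% of all 32851 start sites, and 18.5% of the 27025 genes held it at a start site. Ldha carried 5 matches in its 250 bases and Slc16a3 carried 2. A match is a stretch of letters and not a measured binding site.

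Enzymes that hydroxylate procollagen were also among the rises; this family was assembled after its values were seen. Plod2, a lysyl hydroxylase, read 9.90 and 10.01 in grown cells, against 7.83 and 7.80 in starved cells (difference 2.14, SE 0.29, adjusted p = 0.00183). The catalytic prolyl 4-hydroxylase subunits P4ha2 and P4ha1 rose by 1.58 and 1.31. These were the 3 called among 7 members. Plod2 stayed called in all 4 omissions, P4ha1 in 2 and P4ha2 in 0. Odc1, ornithine decarboxylase, the rate-limiting enzyme of polyamine synthesis, read 12.20 and 12.19 in grown cells, against 10.31 and 9.84 in starved cells, 4.35-fold higher (adjusted p = 0.000274). Plau, the urokinase plasminogen activator, read 9.23 and 9.34 in grown cells, against 7.48 and 6.83 in starved cells (difference 2.13, SE 0.20, adjusted p = 0.000104). Plau and the metalloprotease gene Adam8 (0.80) rose and the α4 integrin gene Itga4 fell (-1.43) among 27 integrins, proteases and urokinase genes, with a list median of 0.05. Plau stayed called in all 4 omissions, Itga4 in 1 and Adam8 in 0. The macrophage elastase gene Mmp12 differed by 1.91 without passing the test (adjusted p = 0.203). The tetraspanin-like membrane protein gene Tm4sf1 read 8.20 and 8.37 in grown cells, against 6.36 and 6.31 in starved cells (difference 1.95, SE 0.14, adjusted p = 8.8e-06). Ehd2, an ATPase of caveolar membranes, rose by 1.95 and the α-tubulin gene Tuba8 by 2.10. Tm4sf1, Odc1 and Ehd2 stayed called in all 4 omissions, and Tuba8 in 1.

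Amino acid and one-carbon enzymes rose by moderate amounts. In the list for amino acid stress and the unfolded protein response, 4 of 21 genes rose and 0 fell, with a median of 0.31. They were Mthfd2 (0.98), a mitochondrial folate enzyme, Phgdh (0.89) and Psat1 (0.74), the early steps of serine synthesis, and Atf4 (0.71), the transcription factor of the amino acid response. Atf4 read 9.90 and 9.85 in grown cells, against 9.24 and 9.08 in starved cells (SE 0.15, adjusted p = 0.0225). The chaperone gene Hspa5 (0.29) and the stress factor gene Ddit3 (0.01) were near 0, and the amino acid transporter gene Slc7a5 (1.20, adjusted p = 0.0564) and Asns (1.15, adjusted p = 0.165) did not pass the test. In a wider family of serine, proline and folate enzymes, assembled after the values were seen, 6 of 11 genes rose and 11 of 11 lay above 0, with a median of 0.74. Its largest member was Aldh18a1, which starts proline synthesis, with 9.53 and 9.68 in grown cells, against 8.33 and 8.35 in starved cells (difference 1.26, adjusted p = 0.00322). Of 20 cytosolic tRNA synthetases and their AIMP partners, a family also assembled afterwards, 6 rose and 19 lay above 0, with a median of 0.55. Cars (0.91), Iars (0.90), Yars (0.84), Aimp2 (0.82), Nars (0.62) and Rars (0.59) were those called. These calls were fragile. Of the 4 calls of that list, 0 remained without grown array I, grown array II or starved array I, and 1 without starved array II; of the 6 synthetase calls, 1, 0, 1 and 1 remained in the same omissions, and of the 6 one-carbon calls 1, 0, 1 and 2.

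Ribosome biogenesis and lipid synthesis leaned upward with few calls. All 24 ribosome biogenesis genes lay above 0, with a median of 0.61, yet limma called 0 of them and 7 had an unadjusted p under 0.05. The nucleolar protein gene Nop58 read 10.36 and 10.13 in grown cells, against 9.70 and 9.37 in starved cells (difference 0.71, adjusted p = 0.384). All 18 measured sterol synthesis genes also lay above 0, with the same median of 0.61, and 0 were called, with 10 at an unadjusted p under 0.05. Lss read 9.78 and 9.78 in grown cells, against 8.42 and 8.39 in starved cells (difference 1.38, adjusted p = 0.0583), and Sqle, which precedes it in the pathway, read 11.27 and 11.39 in grown cells, against 10.28 and 10.23 in starved cells (difference 1.07, adjusted p = 0.0718). With only the 4 arrays of 3ABY721 in the fit, 13 of the 18 sterol genes and 7 of the 24 ribosome genes were called. Of 12 fatty acid synthesis genes, 2 rose, the malic enzyme gene Me1 (0.88) and the elongase gene Elovl6 (0.87), and the desaturase gene Scd2 differed by 2.10 (adjusted p = 0.0718). Me1 was lost in each omission, and Elovl6 remained called without grown array I alone.

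The largest fall was that of Clec4a1, a lectin-type receptor of the DCIR family, which read 6.24 and 5.91 in grown cells, against 9.76 and 8.85 in starved cells, a 9.38-fold difference without overlap (log2 difference -3.23, SE 0.36, adjusted p = 0.000502). Clec7a, the β-glucan receptor dectin-1, read 8.13 and 7.97 in grown cells, against 10.69 and 10.63 in starved cells, 6.11-fold lower with tight pairs (log2 difference -2.61, SE 0.19, adjusted p = 8.8e-06). Clec4a3, of the same DCIR family, fell by 1.82 on the log2 scale (adjusted p = 0.000559). With Clec4b1 (-1.08, lost in each omission), these were the 4 called among 33 C-type lectins, a family assembled after its values were seen, and 25 of the 33 lay below 0. Clec4a1, Clec7a and Clec4a3 stayed called in all 4 omissions. Cxcr4, the receptor of the chemokine CXCL12, read 8.82 and 7.89 in grown cells, against 10.94 and 10.73 in starved cells (difference -2.48, SE 0.35, adjusted p = 0.00233). The grown arrays of Cxcr4 were apart from each other but both below the starved arrays, and the call was lost without grown array II.

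Of 19 genes of the MS4A family, tetraspan-like membrane proteins, 6 fell and 0 rose; this family too was assembled afterwards. Ms4a6b read 6.23 and 6.10 in grown cells, against 8.90 and 8.27 in starved cells (difference -2.42, SE 0.21, adjusted p = 5.35e-05). Ms4a4c differed by -2.10, Ms4a7 by -1.90, Ms4a6c by -1.71, Ms4a4a by -1.65 and Ms4a6d by -0.95, all called. Starved array I lay above starved array II for each of the 6, most widely for Ms4a4a at 7.77 and 6.50. Ms4a6b, Ms4a7 and Ms4a6c stayed called in all 4 omissions, Ms4a4c and Ms4a6d in 2 and Ms4a4a in 1. The CD300 receptors Cd300c2 (-1.38), Cd300ld (-1.03) and Cd300a (-0.81) were called among 8 genes of that family, Cd300c2 in 2 of the 4 omissions and the others in 0. The adhesion G protein-coupled receptors Adgre4 and Adgre5 (CD97) fell by 1.91 and 1.86 on the log2 scale. Adgre4 read 4.94 and 4.98 in grown cells, close to the 20th percentile, against 7.59 and 6.15 in starved cells. Adgre5 stayed called in 2 omissions and Adgre4 in 1. The orphan receptor gene Gprc5c fell by 1.88 on the log2 scale and Ahrr, the repressor of the aryl hydrocarbon receptor, by 2.04, each called in 3 of the 4 omissions. Il10ra, the ligand-binding chain of the IL-10 receptor, read 8.35 and 8.57 in grown cells, against 9.96 and 9.83 in starved cells (difference -1.44, adjusted p = 0.00215), and stayed called in all 4. AW112010, a transcript of mouse immune cells, read 6.11 and 5.90 in grown cells, against 9.15 and 8.64 in starved cells, and had the smallest p of the falls (difference -2.89, SE 0.19, adjusted p = 5.07e-06).

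Several macrophage effector genes fell in grown cells. Among 19 macrophage identity genes 4 fell, 0 rose and 15 lay below 0, with a median of -0.66. An unadjusted limma p under 0.05 was reached by 14 of the 19, all 14 lower in grown cells, against 12.2% of all genes. Mertk, a receptor for apoptotic cells, read 7.04 and 7.23 in grown cells, against 8.44 and 8.27 in starved cells (difference -1.22, SE 0.17, adjusted p = 0.00225). The lysozyme genes Lyz1 (-1.47) and Lyz2 (-0.83) and the fractalkine receptor gene Cx3cr1 (-0.74) also fell. Adgre1, a classical surface antigen of mouse macrophages, read 11.92 and 11.78 in grown cells, against 12.58 and 12.43 in starved cells, without passing the test (difference -0.66, adjusted p = 0.0752). Mertk stayed called in all 4 omissions, Lyz1 and Cx3cr1 in 1 and Lyz2 in 0. Cybb, the catalytic subunit of the phagocyte NADPH oxidase, read 10.35 and 10.37 in grown cells, against 12.48 and 12.20 in starved cells (difference -1.98, SE 0.34, adjusted p = 0.00717). All 6 measured oxidase genes, a family chosen afterwards, lay below 0, and Cybb was the one called, with the call kept without starved array II alone. Selenop, which carries selenium between tissues, read 8.49 and 8.31 in grown cells, against 10.59 and 10.34 in starved cells (difference -2.06, SE 0.17, adjusted p = 2.72e-05), and stayed called in all 4 omissions.

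The further immune response lists given in this paragraph held at most 2 calls each. Birc3 (-0.99) and Bcl3 (-0.85) fell among 14 NF-κB feedback genes, of which 13 lay below 0 around a median of -0.44. Of the 2 calls, 1 remained without grown array I, 0 without grown array II or starved array I, and 2 without starved array II. Cfb, complement factor B, read 7.93 and 7.39 in grown cells, against 9.63 and 8.48 in starved cells (difference -1.40, adjusted p = 0.0467), and remained called without starved array II alone. The nucleic acid sensor gene Tlr8 fell by 1.09 on the log2 scale and the transcription factor gene Irf1 by 0.90, both lost in each omission. Ptgs2, the inducible cyclooxygenase, rose among 16 M1 activation markers, with 7.40 and 8.10 in grown cells, against 6.22 and 6.14 in starved cells (difference 1.57, adjusted p = 0.00855), and stayed called in 1 omission. Irf1, which fell, was the other call among these 16 M1 markers, of which 10 lay below 0 around a median of -0.11. Of 23 M2 markers Clec7a alone was called. Arg1 read 8.72 and 6.86 in grown cells, against 6.04 and 5.75 in starved cells (difference 1.90, adjusted p = 0.286). Of 26 type I interferon response genes 0 were called, with 4 at an unadjusted p under 0.05, and 24 lay below 0 (median -0.22). Of 8 MHC class II presentation genes 0 were called, with 2 at an unadjusted p under 0.05, at a median of -0.81. H2-Aa read 8.60 and 7.01 in grown cells, against 10.14 and 8.52 in starved cells, array I being the higher in both states. The C1q gene C1qb read 8.20 and 8.02 in grown cells, against 9.80 and 8.85 in starved cells (adjusted p = 0.522). Marcks, an actin-linked substrate of protein kinase C, fell by 1.54 on the log2 scale and was the one called among 22 reported miR-21 targets, whose median was 0.03. Clec7a and Marcks stayed called in all 4 omissions.

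Genes tied to FOXO factors, sterol efflux and cell death gave a mixed account. Of 20 FOXO and starvation-linked genes, which PI3K signalling is known to hold down, limma called 0, with 8 at an unadjusted p under 0.05, while 17 lay below 0 around a median of -0.42. Klhl24 read 8.45 and 8.28 in grown cells, against 9.79 and 9.85 in starved cells (difference -1.46, adjusted p = 0.0651), and the ubiquitin ligase gene Fbxo32 differed by -0.94 (adjusted p = 0.177). Smpdl3a, a phosphodiesterase induced by LXR, fell alone among 9 LXR target genes, with 9.97 and 9.79 in grown cells, against 11.31 and 11.20 in starved cells (difference -1.38, SE 0.14, adjusted p = 0.000155), and stayed called in all 4 omissions. In the BCL2 family, examined after its values were seen, 3 of 16 measured genes were called, Bnip3 among them, at a family median of -0.03. The survival gene Bcl2l1 (BCL-XL) rose, with 9.49 and 9.69 in grown cells, against 8.09 and 7.93 in starved cells (difference 1.58, adjusted p = 0.00159). Bmf, a BH3-only protein that promotes apoptosis, fell, with 7.71 and 7.64 in grown cells, against 9.18 and 9.22 in starved cells (difference -1.52, adjusted p = 0.00159). Bcl2l1 and Bmf stayed called in all 4 omissions. The death receptor gene Fas fell by 1.54 on the log2 scale (adjusted p = 0.0254) and was lost in each omission. Among 20 other genes of the TNF receptor superfamily, those with a Tnfrsf symbol, also examined afterwards, 2 rose and 2 fell. Tnfrsf23 (1.33) and Tnfrsf12a (1.17), the TWEAK receptor, rose, and Tnfrsf1b (-1.47), TNFR2, and Tnfrsf14 (-1.34) fell; Tnfrsf1b alone stayed called in all 4 omissions. Of 24 genes for CSF receptors, their ligands and the PI3K pathway 0 were called, with 1 at an unadjusted p under 0.05, and of 26 lysosome and autophagy genes 0 were called, with 7 at an unadjusted p under 0.05.

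No marker of the other cell types listed passed the test. Limma called 0 of 12 dendritic cell markers, 0 of 14 granulocyte and mast cell markers, 0 of 12 fibroblast markers, 0 of 11 lymphocyte markers and 0 of 12 osteoclast markers. At an unadjusted p under 0.05 there were 0 dendritic, 0 granulocyte, 1 fibroblast, 2 lymphocyte and 3 osteoclast genes. The mean level of the dendritic markers was 5.62 and 5.68 in grown cells, against 5.71 and 5.70 in starved cells. That of the granulocyte and mast cell markers was 5.09 and 5.11 in grown cells, against 5.15 and 5.15 in starved cells. Lymphocyte markers had 5.21 and 5.26 against 5.34 and 5.43, and fibroblast markers 6.01 and 6.03 against 5.96 and 6.20. Osteoclast markers were higher, with a mean of 8.05 and 8.13 in grown cells, against 8.04 and 8.15 in starved cells. The osteoclast enzyme gene Acp5 had the largest difference among these markers, at -1.33, with 8.75 and 8.92 in grown cells, against 10.22 and 10.12 in starved cells (adjusted p = 0.192). Over the 31 gene lists together, 43 of 576 measured genes were called, and 21, 12, 14 and 25 were called when grown array I, grown array II, starved array I or starved array II was left out.

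**Figure D3:**
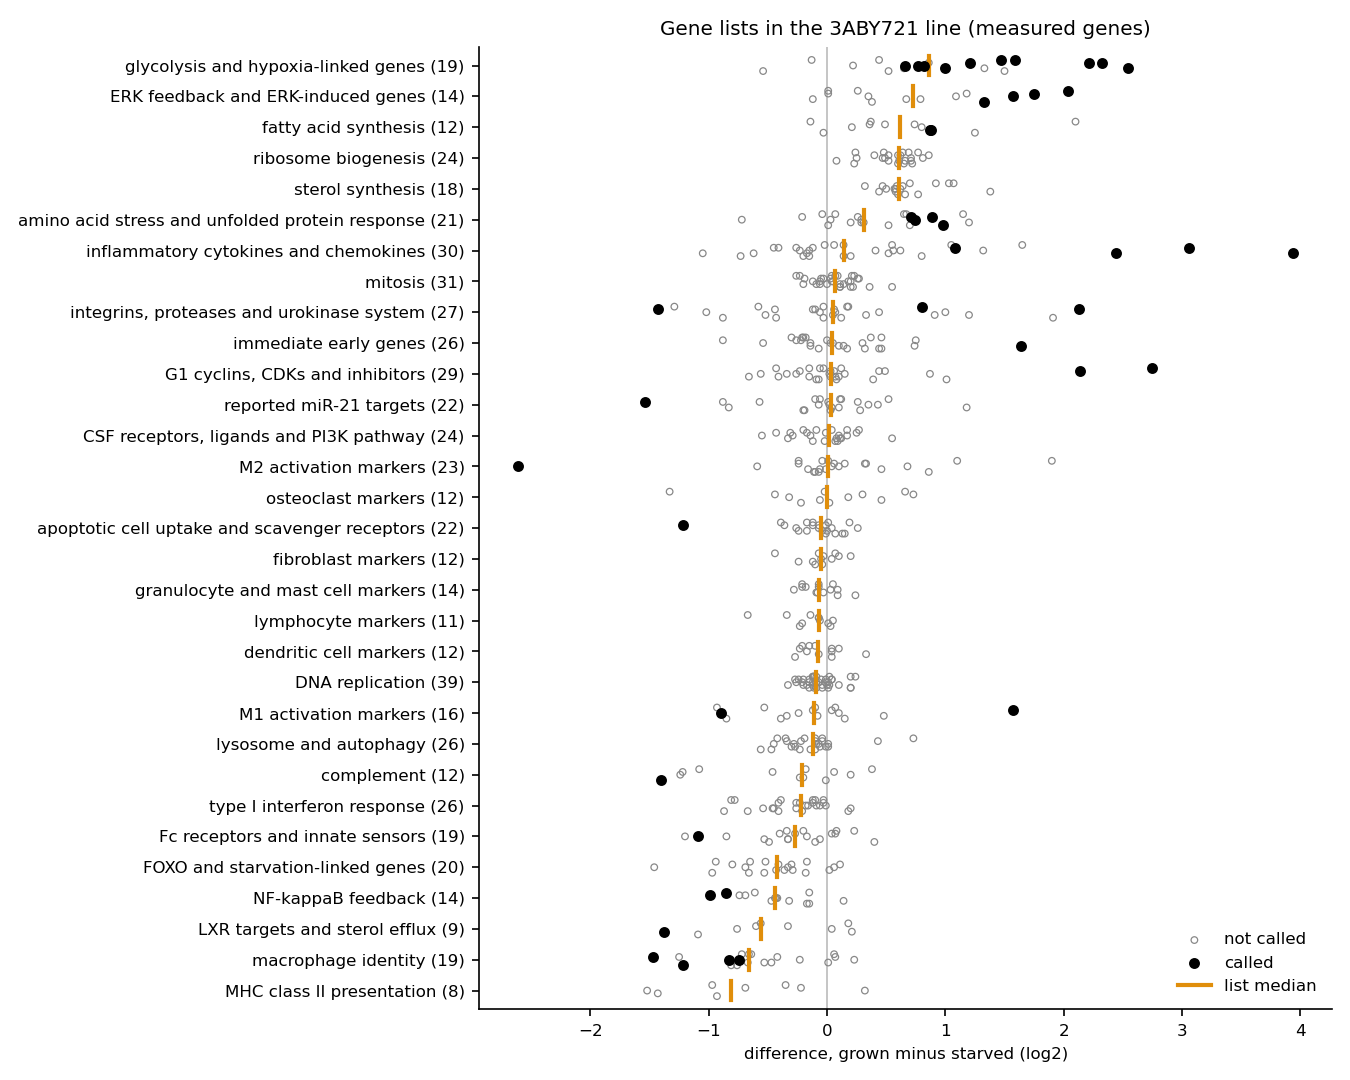
Difference between grown and starved 3ABY721 cells (log2, horizontal axis) for each measured gene of the 31 gene lists, with filled points for called genes, open points for the others and an orange bar at the list median. Glycolysis stands highest (median 0.86, 10 called), the replication and mitosis points cluster at 0, and MHC class II (median -0.81, 0 called) and macrophage identity (median -0.66, 4 called) stand lowest.

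The same contrast in the other lines, which share no arrays with 3ABY721, mostly had the same direction as in 3ABY721 over its called genes. WT cells had 1060 called genes (5.32%), Y721F cells 985 (4.94%) and 3AB cells 137 (0.687%). Of the 282 genes of 3ABY721, 221 were also called in WT (78.4% of the 3ABY721 list and 20.8% of the WT list), 186 in Y721F (66% and 18.9%) and 93 in 3AB (33% and 67.9%). All of these shared genes had moved in the same direction. The difference had the same sign in 278 of the 282 genes in WT, 276 in Y721F and 278 in 3AB. The share of all genes with the same sign is not given here, so these counts have no baseline beside them. Over those 282 genes, chosen for their size in 3ABY721, the median ratio of the other line's difference to that of 3ABY721 was 0.99 in WT, 0.90 in Y721F and 0.70 in 3AB. Taken over the genes called in the other line instead, the median ratio of the 3ABY721 difference to the other line's was 0.63 for WT, 0.52 for Y721F and 0.91 for 3AB. Across all genes the differences of 3ABY721 correlated at 0.72 with those of WT, 0.61 with those of Y721F and 0.70 with those of 3AB, a description over genes that are not independent. The shared counts depended on single arrays and ran from 46 without grown array II of 3ABY721 for WT, from 40 without the same array for Y721F, and from 17 without grown array II of 3AB for 3AB.

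**Figure D4:**
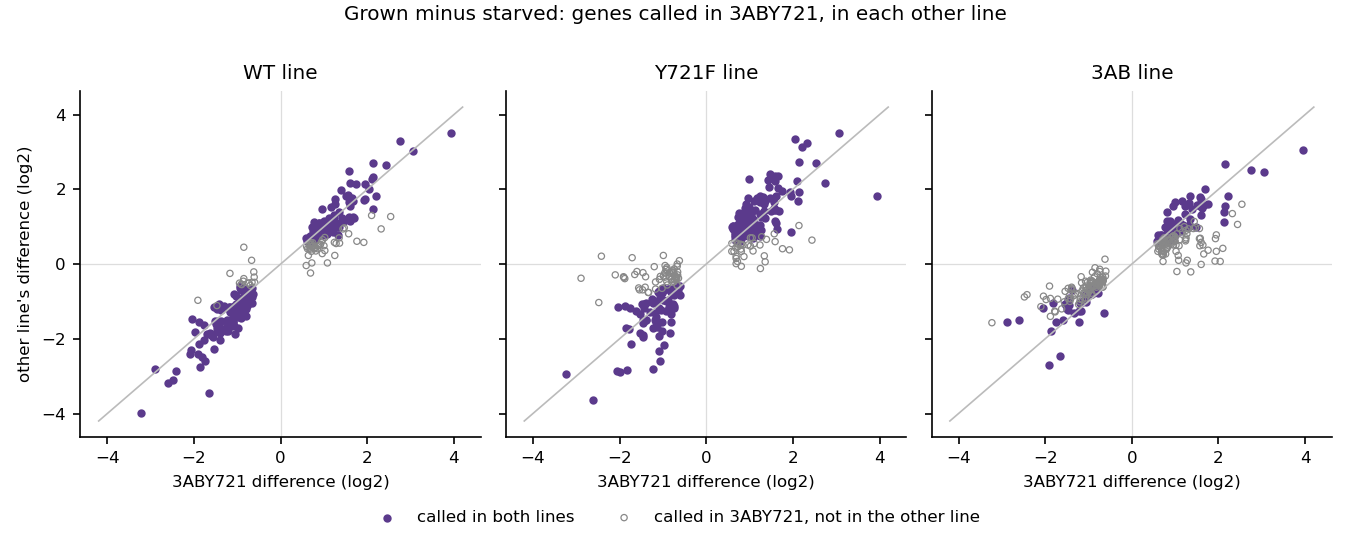
Difference between grown and starved cells (log2) of the 282 genes called in 3ABY721 (horizontal axis) against the same difference in the WT, Y721F and 3AB lines (vertical axis), with filled points for genes called in both lines and a grey line where both are equal. Points follow the line in WT (221 filled), spread more widely in Y721F (186 filled) and lie mostly nearer to 0 than the line in 3AB (93 filled).

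In all 4 lines 64 genes were called, 42 of them up and 22 down. They include Ccl7 (3.94 in 3ABY721, against 3.50 in WT, 1.82 in Y721F and 3.06 in 3AB), Ccl2 (3.06, against 3.02, 3.50 and 2.45 in the same order of lines), Ccnd1 (2.75, against 3.29, 2.17 and 2.52) and Slc2a1 (2.21, against 1.82, 3.12 and 1.83). Clec7a was among the shared falls (-2.61 in 3ABY721, against -3.19 in WT, -3.63 in Y721F and -1.51 in 3AB), with Marcks, Bmf, Mertk and Selenop. A further 49 genes were called in 3ABY721 and WT and in neither line without Tyr-721, 11 up and 38 down. Cxcr4 (-2.48 in 3ABY721, against -3.10 in WT, -1.03 in Y721F and -0.88 in 3AB), Plxdc2 (-1.88, against -2.14, -0.39 and -1.40), Ms4a4c, Ms4a6b and Ms4a7 are of this kind among the falls, and Cxcl3 (2.44 in 3ABY721, against 2.65 in WT, 0.64 in Y721F and 1.06 in 3AB) and Ptgs2 among the rises. A call in some lines and not in others is no test of a difference between them. In Y721F, Ms4a7 read 4.44 and 4.45 in grown cells, against 5.18 and 4.44 in starved cells. Ms4a4c, Ms4a6b and Plxdc2 were also low there in both states, while Cxcr4 was higher, at 7.02 and 7.68 in starved cells. Whether a fall could be measured at the low signals was not tested. In 3AB the falls named here kept their sign, between -0.59 (Ms4a7) and -1.40 (Plxdc2). Of these 49 genes the test of the difference itself called Ms4a6b and Ms4a6c, both against Y721F.

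The call was made in 3ABY721 alone for 24 genes, 14 up and 10 down. Of these, 18 had the same sign in all lines, a count that also has no all-gene share beside it. Rab15, a GTPase of endosomal recycling, read 7.80 and 7.96 in grown 3ABY721 cells, against 5.97 and 5.96 in starved ones. Its difference was 1.92 in 3ABY721, against 0.58 in WT, 0.38 in Y721F and 0.08 in 3AB. F2rl2, a protease-activated receptor, differed by 1.36 in 3ABY721, against 0.56 in WT, 0.06 in Y721F and -0.21 in 3AB, and its grown 3ABY721 arrays stood apart at 6.97 and 6.06. Csf2 differed by 1.08 in 3ABY721, against 0.03 in WT, 0.35 in Y721F and 0.10 in 3AB. Mtmr9, a myotubularin-related protein gene, differed by 0.72 in 3ABY721, against 0.03 in WT, 0.07 in Y721F and 0.07 in 3AB. For none of the 24 did limma call the difference from another line or from the mean of the 3 others. Against that mean the effect of F2rl2 differed by 1.23 and that of Csf2 by 0.93, each with an adjusted p of 1. Rab15 and Mtmr9 were lost in each omission, F2rl2 stayed called in 1 and Csf2 in 2. Rab15, F2rl2 and Mtmr9 were chosen after their values were seen.

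Testing the difference between the growth effects of lines gave few calls. Against WT, limma called 0 genes, with 680 (3.41%) at an unadjusted p under 0.05. Against the mean of the 3 other lines it called 0, with 401 (2.01%) at an unadjusted p under 0.05. Against Y721F it called 6 genes (0.0301%) and against 3AB 1 gene (0.00502%), with 5.48% and 2.21% of genes at an unadjusted p under 0.05. The series' cutoff was passed by 1.71% of genes against WT, 2.95% against Y721F, 0.993% against 3AB and 0.436% against the mean of the other lines. Ms4a6b fell by 2.42 on the log2 scale in 3ABY721, whereas in Y721F it read 4.14 and 4.63 in grown cells and 4.08 and 4.26 in starved cells, below the 20th percentile in every array (difference of effects -2.63, SE 0.30, adjusted p = 0.00216). AW112010 was likewise low in Y721F, with 4.50 and 4.50 in grown Y721F cells and 4.99 and 4.77 in starved Y721F cells (difference of effects -2.51, SE 0.27, adjusted p = 0.00144). Ms4a6c was also low in both states of Y721F, at 4.70 and 4.61 in grown cells and 4.44 and 4.52 in starved cells (difference of effects -1.89, SE 0.29, adjusted p = 0.042). All 3 genes thus lay under 5 in both states of Y721F, and whether their probe sets measured transcript there was not tested, so these sizes are differences of signal.

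Rgs17 and Plce1 had low signals in both states of 3ABY721 and were higher in grown than in starved Y721F cells, and the same limit holds for their 3ABY721 signals. Rgs17, a regulator of G protein signalling, read 4.82 and 5.21 in grown 3ABY721 cells and 4.84 and 5.14 in starved 3ABY721 cells, against 8.92 and 8.85 in grown Y721F cells and 6.71 and 6.42 in starved Y721F cells (difference of effects -2.29, SE 0.23, adjusted p = 0.00144). Plce1, a phospholipase C, read 4.78 and 4.90 in grown 3ABY721 cells and 4.99 and 5.11 in starved 3ABY721 cells, against 8.29 and 7.83 in grown Y721F cells and 6.28 and 5.79 in starved Y721F cells (difference of effects -2.23, SE 0.24, adjusted p = 0.00144). Mertk fell in both lines and by less in 3ABY721, with a growth effect of -1.22, against -2.81 in Y721F, where it read 5.43 and 5.48 in grown cells and 8.12 and 8.42 in starved cells (difference of effects 1.59, SE 0.24, adjusted p = 0.0391). Tm4sf1 rose by 1.95 in 3ABY721, against 0.34 in 3AB, where it read 5.89 and 6.15 in grown cells and 5.84 and 5.53 in starved cells (difference of effects 1.61, SE 0.20, adjusted p = 0.0238). That call was lost in 10 of 15 other settings, among them each omission of a 3ABY721 array. Of the other calls, Ms4a6c was kept in 8 of 14 settings and Mertk in 6 of 14.

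**Figure D5:**
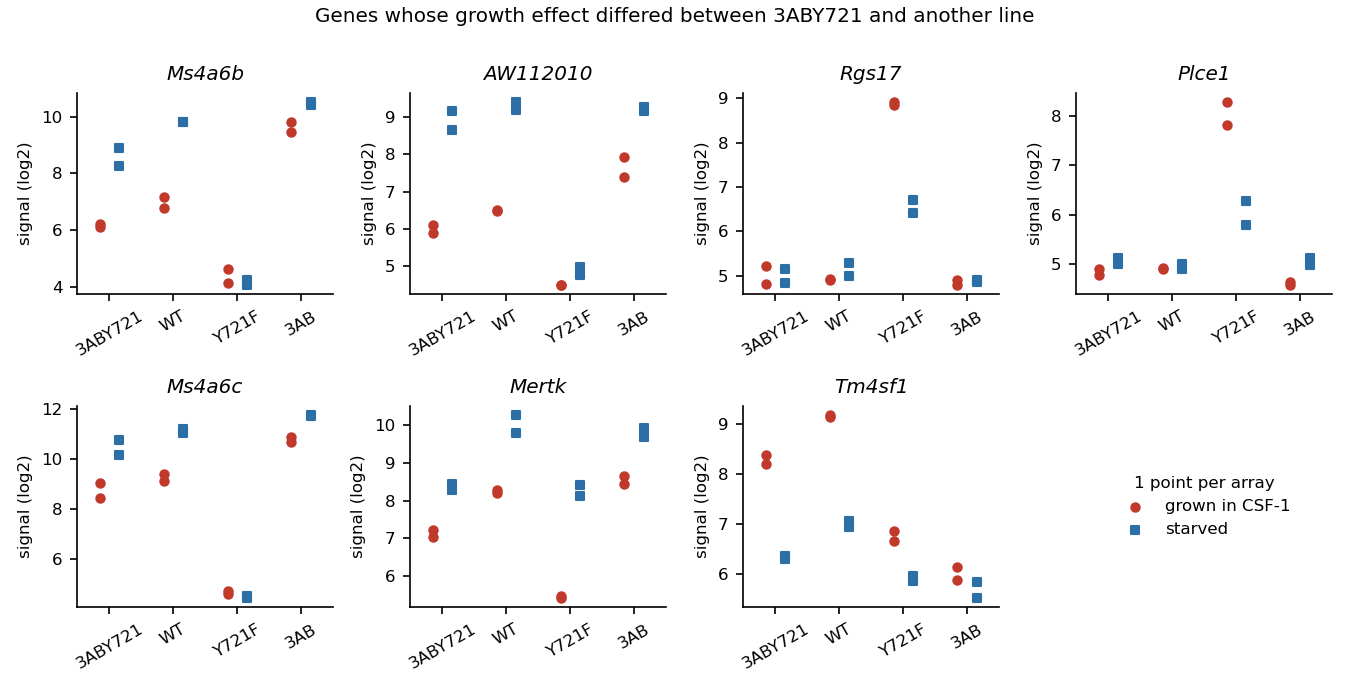
Signal (log2, vertical axis) of the 7 genes whose growth effect differed between 3ABY721 and another line, for 4 lines with 1 point per array, circles for grown cells and squares for starved cells at their right. Ms4a6b, Ms4a6c and AW112010 lie under 5 in both states of Y721F, Rgs17 and Plce1 are high in Y721F alone, and Tm4sf1 separates by state most widely in 3ABY721 and WT.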

How the data were processed

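Affymetrix Mouse Gene 1.0 ST arrays measured the RNA of 4 macrophage lines from mouse. The deposited values were log2 signals per probe set, made by the authors; that scale was read from the values, and for background correction, summarisation, normalisation and the genome build no source used here gives a method. Array medians over all probe sets ran from 5.97 to 6.22. Of 35556 probe sets, 21789 had 1 gene in the platform annotation, 1621 had several and were not used, and 12146 were not listed. For the 999 genes with several probe sets, the one with the highest mean over 32 arrays was taken, leaving 19938 genes.

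The 16 arrays of grown and starved cells (8 groups of 2) were fitted together in limma 3.58.1 under R 4.3.3 (lmFit and eBayes, with 8 residual degrees of freedom), because the design text names limma with a fold above 1.5 and p under 0.05; here p was adjusted by Benjamini-Hochberg. All printed p-values are from limma. Where cultures were not separate, p-values measure only the spread between these samples. Alternatives were another normalisation, filter, probe set rule, prior, sample set, replicate block and cutoff, and leaving out each array.

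Members and lists were chosen with earlier results of these data known. The genes named are the 15 largest rises and falls that did not overlap, up to 6 called members per list, key members of each list, and the called differences between lines. The families of MS4A, C-type lectin, CD300, oxidase, BCL2, TNF receptor, tRNA synthetase, one-carbon and collagen hydroxylase genes were chosen after their values were seen, as were Pgm1, Gbe1, Slc16a1, Cdk6, Ccnd3, Ccl4, Cd68, Phlda1, Slc7a5, Klhl24, Fbxo32, Lss, Errfi1, Il10ra and Fas.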

Additional observations from a re-analysis of the deposited data

Results flagged for a closer look

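For 7 genes the difference between the growth effect in 3ABY721 and that in another line was called by limma. Against Y721F the difference of effects was -2.63 for Ms4a6b, -2.51 for AW112010, -2.29 for Rgs17, -2.23 for Plce1, -1.89 for Ms4a6c and 1.59 for Mertk. Against 3AB it was 1.61 for Tm4sf1. Ms4a6b, Ms4a6c and AW112010 fell in 3ABY721 and lay under 5 in both states of Y721F. Rgs17 and Plce1 were higher in grown than in starved Y721F cells and lay near 5 in both states of 3ABY721, WT and 3AB. Whether these 5 genes were above background in the line with the low signals was not tested, so their differences are of signal and an effect there may not have been measurable. Plce1 was called in 14 of 14 other settings, with an adjusted p of at most 0.017 from limma. AW112010, Ms4a6b and Rgs17 were called in 13 of 14 and lost with all 32 arrays in the fit (adjusted p 0.528, 0.728 and 0.231). Mertk was called in 6 of 14 settings, Ms4a6c in 8 of 14 and Tm4sf1 in 5 of 15. Receptor and line cannot be told apart in these comparisons.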

How the results depend on the processing

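The 282 calls of grown against starved 3ABY721 cells became 152 with all 32 arrays in the fit, 759 with the 4 arrays of 3ABY721, 812 with the arrays of 3ABY721 and 3AB (chosen after seeing the data), 823 at the series' cutoff and 23 with limma's treat against a fold of 1.5; leaving out an array gave 53 to 114. Quantile normalisation gave 300, a filter on low signals 287, the mean of probe sets 274, a trended robust prior 309 and no fold cutoff 291. The genes called for the difference of effects from WT (0) became 340 at the series' cutoff and 0 to 39 without 1 array, 39 being without WT grown array II. From Y721F (6) they became 1 with all 32 arrays, 10 with the trended prior and 589 at the series' cutoff, and 4 to 156 without 1 array, 156 being without Y721F grown array I. From 3AB (1) they became 0 with all 32 arrays and 198 at the series' cutoff, and 0 to 1 without 1 array. From the mean of the other lines (0) they became 87 at the series' cutoff and 0 to 1 without 1 array, 1 being without 3ABY721 grown array II. The 221 genes shared with WT became 116 with all 32 arrays and 46 to 283 without 1 array, the 186 shared with Y721F 110 and 40 to 238, and the 93 shared with 3AB 28 and 17 to 51, or 353 with the arrays of these 2 lines. The 43 called list genes became 27 with all 32 arrays, 125 with the 4 arrays of 3ABY721, 133 with 3ABY721 and 3AB arrays and 12 to 25 without 1 array. With all 32 arrays in the fit, 31 of the 63 called genes named by rule lost their 3ABY721 call. Plau, Marcks, Ms4a6c and Ms4a7 were among them, and Bmf was lost too. The cause of these changes was not tested. Array numerals recur across states, and with the replicate number as a block the calls became 429 in 3ABY721, 336 shared with WT, 155 shared with 3AB, 68 among list genes and 0 for the difference from 3AB. Of lists with 0 calls without the block, FOXO, MHC class II, interferon and osteoclast genes then had 1 each and sterol synthesis had 2. The deviations of same-numbered samples correlated at 0.28 in 3ABY721, 0.26 in WT, 0.12 in Y721F and 0.04 in 3AB, and as the last lies under 0.1 the numbers were not taken to pair the samples, though pairing was not excluded. With 2 arrays per state, the number of arrays limits the precision.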

Other observations

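Among called genes outside the lists, chosen after their values were seen, were enzymes of pyrimidine nucleoside metabolism and proteins of the mitochondrial matrix and inner membrane. Cda, cytidine deaminase, read 10.04 and 10.11 in grown 3ABY721 cells, against 8.31 and 8.52 in starved cells (difference 1.66, SE 0.21, adjusted p = 0.00126 from limma). Uck2, which phosphorylates uridine and cytidine, read 9.61 and 9.64 in grown cells, against 8.26 and 8.22 in starved cells (difference 1.39, adjusted p = 0.0242). The Uck2 call was lost when the mean of its probe sets was used. The mitochondrial proteases Afg3l2 and Lonp1 rose by 1.11 and 0.92, the mitochondrial chaperone Hspa9 by 0.67 and the calcium channel Mcu by 0.69. Cda stayed called in all 4 omissions of an array, and the other 5 in 0.

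The phospholipases A2 Pla2g4a, which releases arachidonic acid, and Pla2g5 rose by 1.25 and 1.11. Rbpj, the DNA-binding partner of Notch, read 11.44 and 11.47 in grown cells, against 10.48 and 10.47 in starved cells (difference 0.98, SE 0.14, adjusted p = 0.0024 from limma). The Rbpj call was lost when the mean of its 2 probe sets was used. Among the falls, the myeloid receptor gene Lilra5 read 8.95 and 9.25 in grown cells, against 10.56 and 10.56 in starved cells (difference -1.46, adjusted p = 0.000634). The lysosomal transporter gene Slc46a3 differed by -1.74 and the membrane glutathione transferase gene Mgst1 by -1.45. Rbpj, Lilra5, Slc46a3 and Mgst1 stayed called in all 4 omissions, Pla2g4a in 1 and Pla2g5 in 0.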
